A study of Physalis pubescens with 5 samples.

Results

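The unigenes described here are those whose deposited protein description names a cysteine protease, and there were 87 of them among 133571 unigenes, the transcripts assembled from the reads. This membership depended on which library's descriptions were used first. With the replicate 1 descriptions first, 55 unigenes qualified. Only 52 of the 87, over all protease types, qualified under both orders of description. Members were chosen by words in the description (cysteine protease, proteinase or endopeptidase, oryzain, vignain, cathepsin, vacuolar processing enzyme and metacaspase), leaving out any description that names an inhibitor; no expression value was used. Papain-type proteases made up 52 of the 87. The other 35 were 13 vacuolar processing enzymes (legumains), 18 metacaspases and 4 ATG4 proteases, which use a catalytic cysteine but belong to other protease families, so the set is wider than the papain family. The members carried 30 distinct descriptions, and 76 shared theirs with another member. For 65 the best protein match was from tomato. Their median length was 480 bases (151 to 1931), against 333 bases over all unigenes.

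Papain-type proteases are made as inactive precursors, pass through the secretory pathway and are mostly active in the vacuole, in lytic bodies or outside the cell, where they degrade proteins during senescence, defence, seed germination and developmental cell death. Cystatins are their proteinaceous inhibitors. Legumains cut after asparagine and mature other vacuolar proteins, seed storage proteins among them. Metacaspases cut after arginine or lysine and have been tied to cell death in plants. In anthers of Arabidopsis a KDEL-tailed papain-type protease, CEP1, takes part in the programmed death of the tapetum, the cell layer that feeds developing pollen.

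RNA came from young fruits taken after fertilization and from floral buds taken before it, of Physalis floridana P106, whose labelled organism is Physalis pubescens, raised under glass in long days (16 h light, 8 h dark). There were 2 libraries of each organ, replicates 1 and 2, where the design text speaks of triplicates; no label ties them to different plants, and the p-values describe only the spread among these libraries, which may be technical. A library of mixed organs was not analysed here. The libraries held 8.24 to 9.002 M uniquely assigned reads. On the CPM scale (counts relative to the library's total) a single count equalled 0.111 to 0.121, and a count of 0 allows up to 3 counts, or 0.333 to 0.364 CPM; these limits cover counting error only.

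The fruit libraries stood apart from each other. Their log2 CPM had a Pearson's r of 0.645 across the 59858 tested unigenes, which are not independent replicates, against 0.891 for the bud pair; the fruit-bud pair numbered 1 had 0.768 and the pair numbered 2 had 0.94. Each fruit library was thus closer to the bud library of its own number than to the other fruit library. Whether each library holds the organ its label names was not tested, and this bears on every fruit value given here. The 63 unigenes whose descriptions name pollen, anther or tapetum summed to 968 (fruit replicate 1) and 7388 CPM (fruit replicate 2), against 3493 and 4176 CPM in bud replicates 1 and 2; of the 63, 14 were at 0 in fruit replicate 1, 4 in fruit replicate 2 and 3 in each bud. The 117 photosynthesis unigenes summed to 15577 and 5735 CPM in the fruit pair, and to 6470 and 6566 CPM in bud replicates 1 and 2. In such whole organs, fewer cells of a type and less RNA per cell cannot be told apart. Values are therefore given library by library, and the calls also with either fruit library left out.

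Cysteine protease transcripts as a group were abundant in both organs, but their sum followed the library rather than the organ. The 87 members summed to 3259 and 10043 CPM in fruits 1 and 2, compared with 4709 and 7496 CPM in bud replicates 1 and 2, so that the organs overlapped. Most of that spread came from a pair of oryzain-like unigenes; the other 85 members summed to 3256 and 4160 CPM in the fruits and to 2950.3 and 2846 CPM in bud, with both fruits above both buds. A total of 66 members had counts in all 4 libraries, 27 averaged under 1 CPM and 7 averaged at least 100 CPM.

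**Figure D1:**
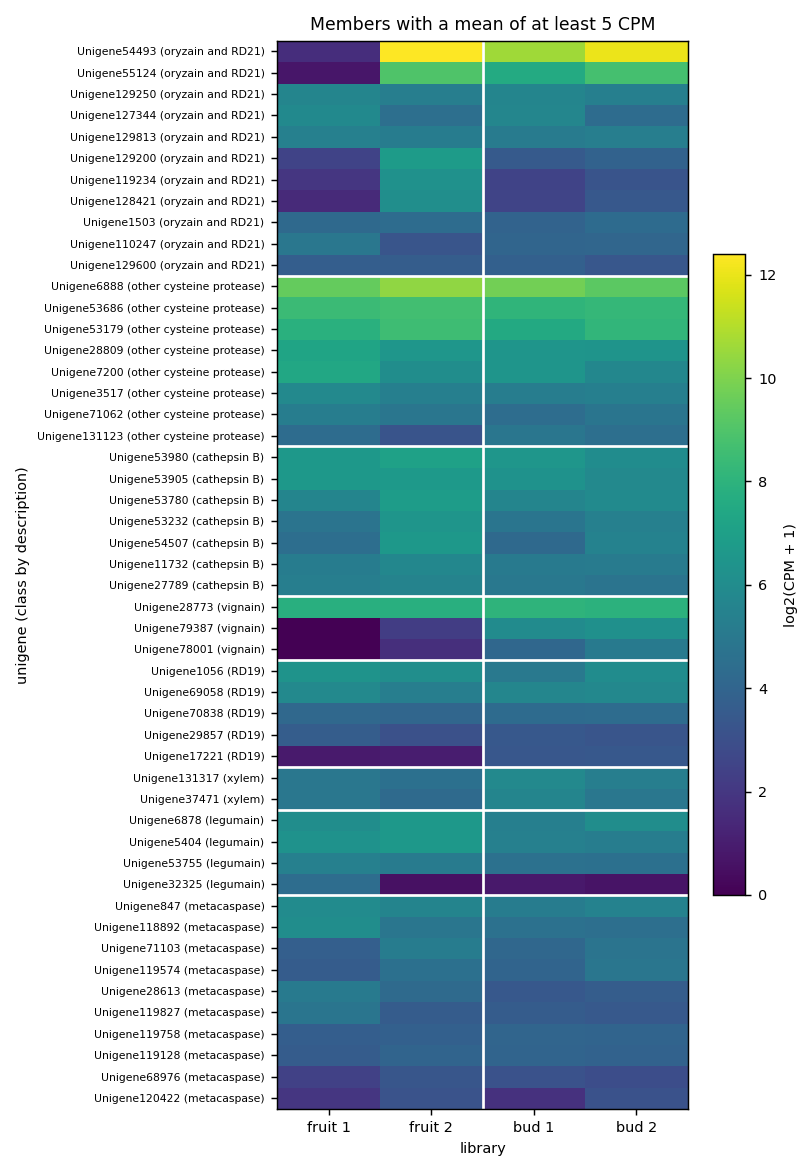
Level of the 50 members with a mean of at least 5 CPM in each library, as log2(CPM + 1), in rows grouped by class with the most abundant member of a class first. The 2 top rows, oryzain alpha chain-like unigenes, are dark in fruit replicate 1 (2.11 and 0.667 CPM) and bright elsewhere, and 2 vignain-class rows and 1 RD19-class row are dark in both fruits.

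By class, measured as summed CPM per library without scaling for composition, 4 classes had both fruits above both buds. The vacuolar processing enzymes averaged a sum of 237 ± 6.51 CPM over the fruits and 122 ± 14.0 CPM over the buds (SD, n = 2 each). The cathepsin B class, in mammals a lysosomal protease that also trims proteins from the carboxyl end, averaged a sum of 499 ± 188 CPM over the fruits and 328 ± 1.02 CPM over the buds. Its sum in fruit replicate 1, 366 CPM, lay close above the buds at 329 and 327 CPM. That separation did not hold with scaling for composition (TMM factors 1.083 for fruit replicate 1 and 0.9641 for bud replicate 2). With each sum divided by its factor, fruit replicate 1 fell just below bud replicate 2. Metacaspases averaged a sum of 227 ± 23.1 CPM over the fruits and 172 ± 22.8 CPM over the buds, and the papain-type unigenes with other names one of 2006 ± 391 CPM over the fruits and 1509 ± 105 CPM over the buds.

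The vignain and xylem classes ran the other way, at 227 ± 3.27 and 50.3 ± 12.1 CPM in fruit against 348 ± 9.58 and 88.3 ± 26.6 CPM in buds. The oryzain and RD21, RD19 and ATG4 classes overlapped between the organs. With 2 libraries per organ no exact permutation test of such a sum can give a two-sided p below 0.333, so these sums carry no test.

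**Figure D2:**
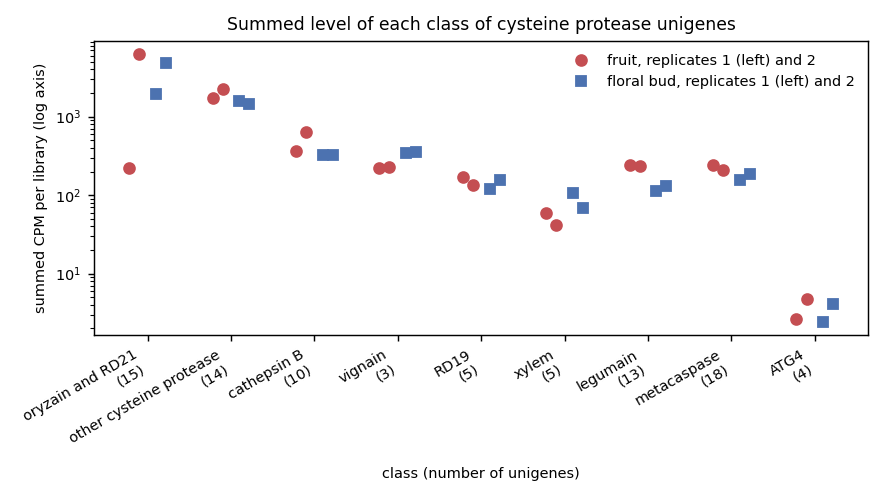
Summed CPM of each class in each library on a log axis, fruit as circles and floral bud as squares, with replicate 1 left of replicate 2 and the number of unigenes in brackets. Legumain circles lie above the squares, vignain circles below them, and the oryzain and RD21 class spans 224 to 6276 CPM within fruit.

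Setting fruit beside floral bud bears on which of these proteases differ across the step from flower to fruit. Of the 87 members, 56 passed the filter on low counts, a filter that a unigene can also pass through its higher organ alone. In edgeR's quasi-likelihood test, with p-values adjusted after Benjamini and Hochberg, 0 of the 56 were called higher and 0 lower in fruit, where the share of all tested unigenes was 0% in each direction. At an unadjusted p under 0.05, 2 members were higher and 3 lower, where 0.51% and 1.11% of all tested unigenes were. DESeq2's Wald test with the same adjustment called 0 higher and 1 lower of the 59 members to which it gave an adjusted p, where it called 0.0491% and 0.21% of all unigenes. The 1 called member was a cysteine proteinase 15A-like unigene, described below.

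Without overlap between the organs, 16 of the 56 tested members had both fruits above both buds, where 8.49% of all tested unigenes did. For 9 members both fruits lay below both buds, where 13.6% of all did. With TMM scaling, which corrects for differences in composition between libraries, these numbers became 15 and 9 (chosen after the data were seen). Of all 59858 tested unigenes, 6059 then had both fruits above both buds and 7538 had both fruits below both buds. Vacuolar-processing enzyme Unigene6878_P106 and cathepsin B-like Unigene11732_P106 then had overlapping organs, while those of vacuolar-processing enzyme-like Unigene105139_P106 came apart. Many members share a description and may be pieces of the same transcript, so they are not independent. The median log2 fold change of the tested members was 0.22, against 0.01 over all tested unigenes, with 36 members above 0 and 20 below.

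Within the pairs of libraries that share a replicate number, with 1 library per organ and no test, the fold was taken on CPM with 1 CPM added. At least 4-fold lower in fruit in both pairs were 3 of the 56 tested members, where 0.347% of all tested unigenes were, and 0 members were at least 4-fold higher in both, where 0.01% of all were. The 3 were a vignain-like, a CEP1-like and a 15A-like unigene. In replicates 1 alone, 5 members were at least 4-fold lower in fruit (4.11% of all) and 0 at least 4-fold higher (0.698% of all). In replicates 2 alone, 3 were at least 4-fold lower (0.383% of all) and 3 at least 4-fold higher (0.6% of all).

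**Figure D3:**
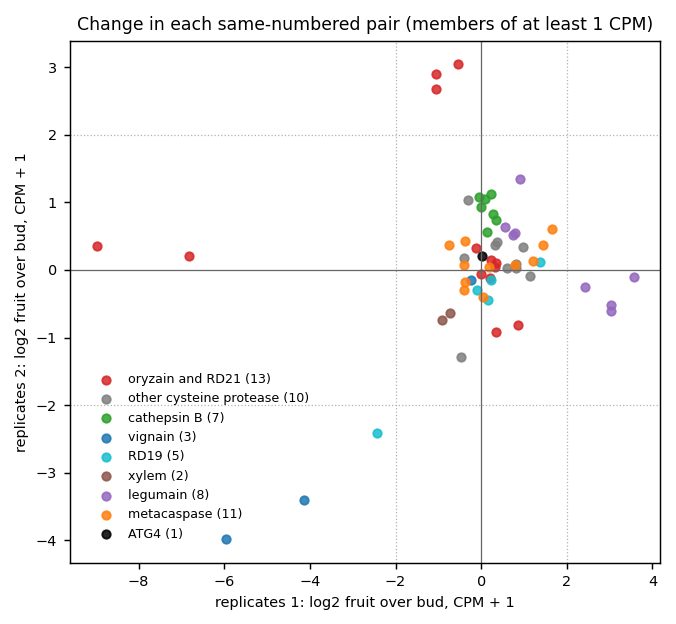
Log2 change of fruit over bud, on CPM with 1 CPM added, in replicates 1 (horizontal axis) and replicates 2 (vertical axis), for the members with a mean of at least 1 CPM, coloured by class; the legend gives the number in each class, and dotted lines mark 4-fold. The 3 points at lower left are low in both fruits, the 2 points at far left are the oryzain pair, the 3 points at the top the RD21a-like set, and the 4 points at right the vacuolar-processing enzyme-like set, which did not pass the filter over all libraries.

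With either fruit library left out, the remaining one was taken to be as variable as a bud library, and the same buds serve in both fits. Without fruit replicate 1, edgeR called 3 members higher and 3 lower of the 59 tested, where 1.44% and 0.466% of all tested unigenes were called. Without fruit replicate 2 the calls were 6 higher and 6 lower of 65, where 2.29% and 6.14% of all were. Of the 6 higher, 4 passed the filter in that fit only through fruit replicate 1, where they were high, so the count is not read against the background. The lower calls of both fits included the 3 members at least 4-fold lower in both pairs. Those 3 were picked for that difference in the same libraries, so their calls add no support. The other calls differed between the fits, in each case following the fruit library that was kept.

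**Figure D4:**
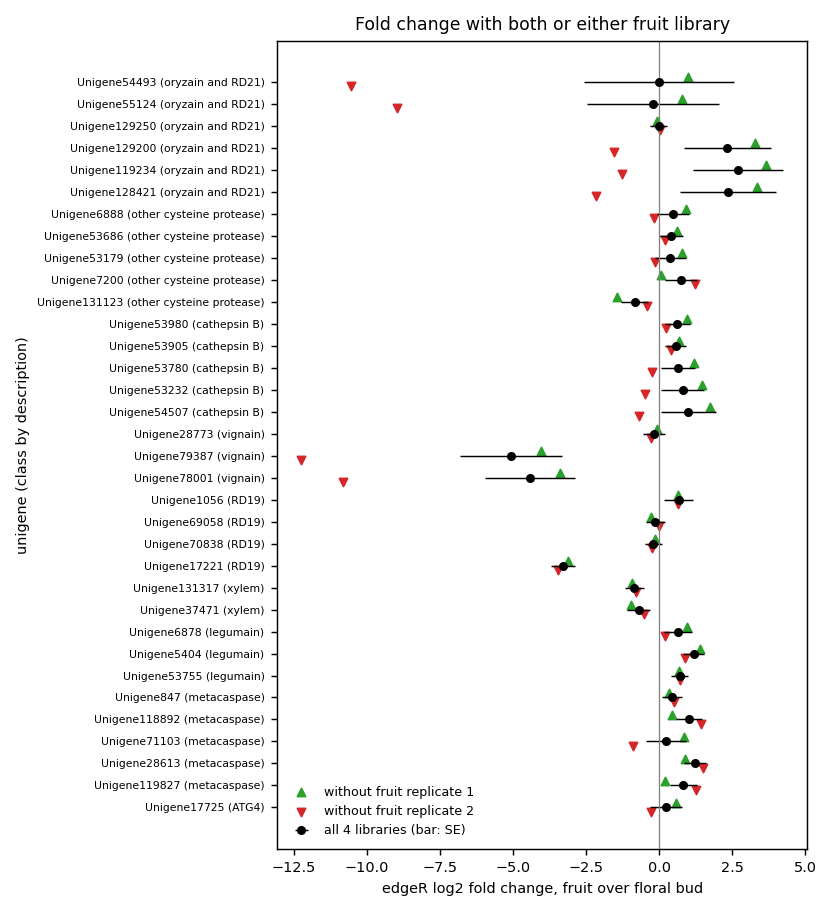
Log2 fold change of fruit over floral bud from edgeR for the 34 named members that were tested, with all 4 libraries (black, bar is the SE), without fruit replicate 1 (upward triangle) and without fruit replicate 2 (downward triangle). For the oryzain pair and the 3 RD21a-like unigenes with long bars the triangles lie on opposite sides of 0, and for Unigene17221_P106 they lie close to the point with all libraries; for Unigene79387_P106 and Unigene78001_P106 the downward triangles rest on 0 counts in fruit and are no measure of size.

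The unigenes lower in both fruits came first from the vignain class, endopeptidases of which many carry a KDEL signal that holds them in the endoplasmic reticulum until the cell dies. The vignain-like Unigene79387_P106 had 0 counts in fruit replicate 1 and 31 counts (3.76 CPM) in fruit replicate 2, against 529 counts (61.2 CPM) in bud replicate 1 and 621 (74.1 CPM) in bud replicate 2. Both fruits thus lay far below both buds, and fruit replicate 1 was at least 184-fold lower than bud replicate 1, taking 3 counts as its floor, and bud replicate 2 stood 19.7-fold above fruit replicate 2. Reads reached 84.4% of the unigene's length in fruit replicate 2, against 98.8% and 99.4% in the buds. Over all libraries edgeR gave a log2 fold change of -5.07 (SE 1.74, adjusted p = 1). Without fruit replicate 1 it was -4.05, and without fruit replicate 2 the fit rests on 0 counts in fruit.

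The KDEL-tailed cysteine endopeptidase CEP1-like Unigene78001_P106 followed the same order. It had 0 counts in fruit replicate 1 and 18 counts (2.18 CPM) in fruit replicate 2, against 16.7 and 32.7 CPM in bud replicates 1 and 2. Bud replicate 1 was at least 49.98-fold above the floor of fruit replicate 1, and bud replicate 2 stood 14.98-fold above fruit replicate 2. In edgeR it had a log2 fold change of -4.43 (SE 1.55, adjusted p = 1). Without fruit replicate 1 it was -3.38, and without fruit replicate 2 the fit rests on 0 counts in fruit. The vignain-like to CEP1-like ratio of RPKM, the level scaled to length and library total, was 1.02 in fruit replicate 2, against 2.17 and 1.34 in bud replicates 1 and 2.

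The other member of the class did not share this pattern. The longer vignain-like Unigene28773_P106 stood at 224 and 223 CPM in the fruit pair, and at 264 and 248 CPM in bud. The fruits lay below the buds by little, and the organs did not overlap (edgeR log2 fold change -0.17, SE 0.36, adjusted p = 1). The pollen and anther unigenes, at 968 and 7388 CPM in the fruits and 3493 and 4176 CPM in bud, were not low in fruit replicate 2, unlike the vignain-like and CEP1-like unigenes. The 72 seed and embryo marker unigenes summed to 545 and 937 CPM in fruit, compared with 5643 and 5841 CPM in bud, a sum carried mostly by a few vicilin-like unigenes. The highest of these, Unigene53698_P106, stood at 4.11 and 205 CPM in fruit, compared with 3046 and 2871 CPM in bud. Over the list, 14 of 43 tested unigenes had positive log2 fold changes and 29 negative ones, with a median of -0.25. Of the 72, 10 and 9 were at 0 in the fruits, and 2 and 7 in the buds. The part of either marker list in the result was not tested.

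The cysteine proteinase 15A-like isoform 2 Unigene17221_P106, of a class first described in pea shoots short of water, had nearly equal replicates within each organ. It had 8 counts in each fruit (0.889 and 0.971 CPM) against 79 and 80 counts in bud replicates 1 and 2 (9.14 and 9.55 CPM). Neither fruit came near either bud, and the buds were 10.3-fold above fruit in replicates 1 and 9.84-fold in replicates 2. DESeq2 called it lower in fruit (log2 fold change -3.31, adjusted p = 4.65e-05). The edgeR log2 fold change was -3.29 (SE 0.41), at an unadjusted p of 7.62e-04 and an adjusted p of 1. Without fruit replicates 1 and 2 in turn it was -3.13 and -3.48.

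The other RD19-class unigenes, papain-type proteases whose Arabidopsis relative RD19 is induced by drying, showed smaller differences. The RD19a-like Unigene1056_P106 was at 82.5 and 69.9 CPM in fruit, compared with 31.0 and 64.5 CPM in bud, and its organs did not overlap by a narrow margin (edgeR log2 fold change 0.67, SE 0.49, adjusted p = 1). A second unigene with the isoform 2 description, Unigene29857_P106, stood at 11.6 and 7.52 CPM in fruit, compared with 9.72 and 8.48 CPM in bud, and its organs overlapped. The isoform 1 unigenes, Unigene69058_P106 and Unigene70838_P106, had log2 fold changes of -0.13 (SE 0.32) and -0.20 (SE 0.30).

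Xylem cysteine proteinase 1-like unigenes, relatives of an Arabidopsis protease that clears the contents of dying water-conducting cells, were lower in both fruits. Unigene131317_P106 was at 29.2 and 22.8 CPM in fruit, compared with 55.7 and 38.7 CPM in bud, and Unigene37471_P106 at 28.9 and 18.2 CPM against 48.1 and 29.0 CPM. Neither unigene's organs overlapped, though for Unigene37471_P106 fruit replicate 1 lay only just below bud replicate 2. Their edgeR log2 fold changes were -0.85 (SE 0.33) and -0.71 (SE 0.39), with adjusted p-values of 1. The other 3 of the class averaged under 1 CPM. The highest of these, Unigene48208_P106, had 0.222 and 0.364 CPM in fruit, compared with 1.27 and 0.955 CPM in bud.

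Oryzain alpha chain-like and RD21a-like proteases are papain-type enzymes with a granulin domain in many plants, and in Arabidopsis RD21 is a major protease of senescing leaves. Their most abundant unigene here was also the most abundant member of all. Unigene54493_P106 had 19 counts (2.11 CPM) in fruit replicate 1 and 44369 counts (5385 CPM) in fruit replicate 2, against 1571 and 4217 CPM in bud replicates 1 and 2. It was abundant in 3 libraries and scarce in 1, with fruit replicate 2 2551-fold above fruit replicate 1. By count it ranked first of all unigenes in fruit replicate 2, and 45537 in fruit replicate 1, against 11 and 2 in bud replicates 1 and 2.

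Scaled to length, the same unigene stood at 2.58 and 6583 RPKM in fruit replicates 1 and 2 against 1920.2 and 5155 RPKM in the buds. Reads reached 63.2% of its length in fruit replicate 1, and 99.8% to 99.9% in the other 3 libraries. In edgeR its log2 fold change came to -0.00 (SE 2.55; adjusted p = 1). Without fruit replicate 2 its log2 fold change was -10.6, and without fruit replicate 1 it was 0.99.

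A second oryzain alpha chain-like unigene, Unigene55124_P106, had 6 counts (0.667 CPM) in fruit replicate 1 but 498 CPM in fruit replicate 2, against 188 and 433 CPM in bud. The order of the libraries was that of Unigene54493_P106. The CPM of Unigene54493_P106 was 10.8 times that of Unigene55124_P106 in fruit replicate 2, against 8.36 and 9.73 times in the buds; in fruit replicate 1 the ratio was 3.17 and rests on 6 counts. Many of the pollen and anther unigenes were also lower in fruit replicate 1. Of the 50 tested, 23 were at least 4-fold below bud replicate 1, where 4.11% of all tested unigenes were. Of these markers a LAT52-like unigene, named for a tomato pollen gene, stood at 0.667 and 865 CPM in fruits 1 and 2, compared with 600.2 and 678 CPM in bud. An anther-specific TA-29-like unigene stood at 0.444 and 262 CPM in fruits 1 and 2, compared with 67.8 and 309 CPM in bud. Others did not follow: pollen-specific C13-like Unigene53762_P106 stood at 495 and 368 CPM in fruits 1 and 2, compared with 336 and 449 CPM in bud, and early tobacco anther 1 Unigene69839_P106 at 91.98 and 97.3 CPM against 85.8 and 96.1 CPM. The part of these markers in the oryzain result was not tested.

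A set of 3 RD21a-like unigenes was high in fruit replicate 2 alone. Unigene129200_P106 had 4.55 and 110.1 CPM in fruits 1 and 2, compared with 10.5 and 13.9 CPM in bud. Unigene119234_P106 had 2.89 and 75.1 CPM in fruit, compared with 4.63 and 8.24 CPM in bud, and Unigene128421_P106 had 1.78 and 68.3 CPM against 4.74 and 9.79 CPM. In each case the buds lay between the fruits, so the organs overlapped. In replicates 2 the fruit stood 7.95-fold, 9.12-fold and 6.98-fold above the bud for the 3 in turn.

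With all libraries the edgeR log2 fold changes of the 3 were 2.34 (SE 1.47), 2.70 (SE 1.54) and 2.37 (SE 1.64), with adjusted p-values of 1. Without fruit replicate 1 their log2 fold changes were 3.29, 3.65 and 3.34. The 3 were picked for being high in fruit replicate 2 against the buds, so no test of that fit is given for them. Without fruit replicate 2 their log2 fold changes were -1.53, -1.27 and -2.15. The 3 share a description, and whether they are pieces of a single transcript was not tested. The pollen and anther sum was likewise highest in fruit replicate 2, and its part in the result was not tested.

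**Figure D5:**
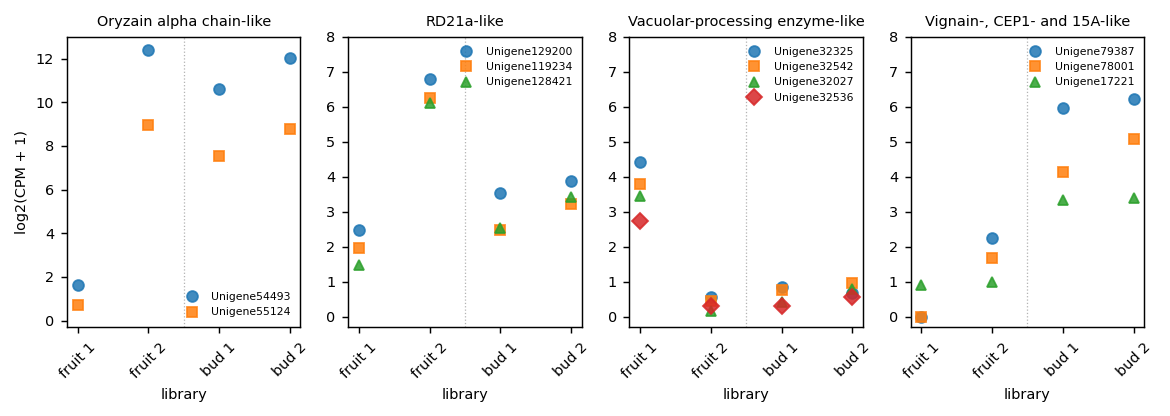
Level in each library, as log2(CPM + 1), of the oryzain alpha chain-like pair, the 3 RD21a-like unigenes, the 4 vacuolar-processing enzyme-like unigenes and the 3 unigenes at least 4-fold lower in fruit in both pairs; the first panel has its own vertical range. The sets are low in fruit replicate 1 only, high in fruit replicate 2 only, high in fruit replicate 1 only, and low in both fruits.

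The other abundant RD21a-like unigenes differed less. Unigene129250_P106 stood at 48.4 and 38.7 CPM in fruit, compared with 48.6 and 40.4 CPM in bud (edgeR log2 fold change -0.02, SE 0.30, adjusted p = 1). Unigene127344_P106 followed the replicate number instead of the organ, at 58.7 and 21.97 CPM in fruits 1 and 2, compared with 49.7 and 19.8 CPM in bud replicates 1 and 2.

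Among the papain-type unigenes with other names, the most abundant was a TDI-65 precursor, Unigene6888_P106, whose tomato namesake was found as a drought-induced gene. It stood at 698 and 1277 CPM in fruit, compared with 859 and 619.9 CPM in bud, and the organs overlapped (edgeR log2 fold change 0.47, SE 0.56, adjusted p = 1). Cysteine proteinase precursor Unigene53686_P106 was at 353 and 399 CPM in fruit, compared with 274 and 299 CPM in bud, without overlap (log2 fold change 0.41, SE 0.40). Putative cysteine proteinase Unigene53179_P106 was at 232 and 371 CPM against 185 and 287 CPM, with overlap.

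Smaller members of the same group differed in direction. Unigene7200_P106, described as a cysteine protease, stood at 172 and 65.5 CPM in fruit, compared with 87.0 and 51.6 CPM in bud; the fruit was higher within each pair of equal number, while the organs overlapped. Unigene131123_P106, a putative cysteine protease, stood at 19.9 and 8.37 CPM against 28.0 and 21.97 CPM, with both fruits below both buds (log2 fold change -0.84, SE 0.45, adjusted p = 1). An aleurain-type unigene, Unigene28809_P106, related to a barley vacuolar protease, was at 152 and 90.05 CPM in fruit, compared with 86.4 and 84.8 CPM in bud.

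All 7 tested cathepsin B unigenes had positive log2 fold changes, with a median of 0.62 beside 0.01 over all tested unigenes, and edgeR called 0 of them. This direction rested on fruit replicate 2 for 4 of the 7, whose log2 fold changes without it were -0.24 (Unigene53780_P106), -0.49 (Unigene53232_P106), -0.69 (Unigene54507_P106) and -0.0048 (Unigene11732_P106). The class summed to 366 and 632 CPM in fruit, compared with 329 and 327 CPM in bud. Unigene53980_P106 stood at 96.2 and 136 CPM in fruit, compared with 89.8 and 65.2 CPM in bud, and Unigene53905_P106 at 96.2 and 101 CPM against 79.8 and 56.2 CPM. Both had the fruits above the buds, with log2 fold changes of 0.62 (SE 0.42) and 0.56 (SE 0.36) and adjusted p-values of 1. Unigene53780_P106 stood at 49.7 and 114 CPM against 49.4 and 59.5 CPM.

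Like Unigene53780_P106, another pair of cathepsin B unigenes stood above both buds in fruit replicate 2 alone. Unigene53232_P106 stood at 26.7 and 88.1 CPM in fruits 1 and 2, compared with 27.6 and 41.1 CPM in bud, and Unigene54507_P106 at 21.2 and 97.1 CPM against 17.9 and 44.2 CPM. Their log2 fold changes were 0.80 (SE 0.73) and 0.99 (SE 0.95).

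Vacuolar processing enzymes were higher in CPM in both fruits for each of the 3 abundant unigenes. For Unigene6878_P106 the margin was narrow, and its organs overlapped with TMM scaling. Vacuolar processing enzyme-1a, Unigene5404_P106, stood at 77.6 and 95.5 CPM in fruit, compared with 41.2 and 37.1 CPM in bud. Its organs lay well apart, and its edgeR log2 fold change was 1.18 (SE 0.36), at an unadjusted p of 0.0251 and an adjusted p of 1; DESeq2's adjusted p was 0.112. Unigene53755_P106 stood at 40.7 and 34.5 CPM against 23.25 and 23.2 CPM, and Unigene6878_P106 at 67.4 and 97.0 CPM against 39.7 and 67.2 CPM. Their log2 fold changes were 0.70 (SE 0.29) and 0.64 (SE 0.49), with adjusted p-values of 1.

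A set of 4 vacuolar-processing enzyme-like unigenes was high in fruit replicate 1 alone. Its summed CPM was 48.8 in fruit replicate 1 and 1.21 in fruit replicate 2, against 2.08 and 2.75 in bud replicates 1 and 2. Unigene32325_P106, the highest, stood at 20.3 and 0.485 CPM in fruit, compared with 0.81 and 0.597 CPM in bud. The 4 did not pass the filter over all libraries, and they were picked out for this pattern, so no test is given for them. The photosynthesis sum was also highest in fruit replicate 1, at 15577 CPM, and its part in the result was not tested. Seed storage protein unigenes, whose products legumains process, summed over 13 unigenes to 103 and 373 CPM in fruit, compared with 4924 and 5122 CPM in bud, nearly all of it in bud from 4 vicilin-like unigenes. The 13S globulin-like Unigene10389_P106 did not share that order, at 94.5 and 13.6 CPM in fruit, compared with 17.1 and 11.3 CPM in bud, and made up most of the sum in fruit replicate 1.

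Several metacaspases were higher in both fruits and others followed the library. Unigene28613_P106, described as a metacaspase, stood at 32.3 and 18.2 CPM in fruit, compared with 9.60 and 11.6 CPM in bud, and its log2 fold change of 1.24 (SE 0.38) had an unadjusted p of 0.0263 and an adjusted p of 1 in edgeR. The metacaspase-9-like Unigene118892_P106, whose Arabidopsis relative acts in the clearing of dying xylem cells, stood at 65.5 and 28.4 CPM in fruit, compared with 23.6 and 21.7 CPM in bud. Both unigenes had the fruits above the buds, with fruit replicate 1 highest. Unigene28613_P106 was picked for being high in fruit replicate 1 against the buds, and Unigene118892_P106 partly so. The fit without fruit replicate 2 repeats that comparison, so no test of it is given for them.

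A second metacaspase-9-like unigene, Unigene119827_P106, stood at 27.2 and 11.3 CPM against 11.1 and 10.1 CPM, again with fruit replicate 1 highest. The most abundant metacaspase by mean, Unigene847_P106, stood at 61.8 and 46.5 CPM in fruit, compared with 35.4 and 44.1 CPM in bud. Metacaspase 2, Unigene71103_P106, followed the replicate number, at 12.6 and 36.0 CPM in fruit, compared with 16.7 and 26.6 CPM in bud (log2 fold change 0.22, SE 0.68). ATG4, the protease that trims the ubiquitin-like ATG8 in autophagy, was scarce, at 1.78 and 2.79 CPM in fruit, compared with 1.73 and 2.27 CPM in bud for its most abundant unigene, Unigene17725_P106.

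Cystatins, the inhibitors of papain-type proteases, summed over 16 unigenes to 398 and 460.2 CPM in fruit, compared with 334 and 429 CPM in bud. The most abundant, cystatin precursor Unigene2698_P106, was level at 180.2 and 187 CPM against 166 and 182 CPM. Cysteine proteinase inhibitor 10-like Unigene36749_P106 followed the replicate number, at 36.0 and 128 CPM in fruit, compared with 39.6 and 109 CPM in bud. The 10 tested cystatins had a median log2 fold change of 0.09, and edgeR called 0 of them over all libraries.

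A set of 4 cystatins was high in fruit replicate 1 alone and did not pass the filter over all libraries. The highest of them, inhibitor 5-like Unigene23429_P106, had 215 and 0 counts in fruit replicates 1 and 2 against 1 count in each bud. They were picked out for this pattern, and no test is given for them.

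Other genes of protein turnover gave no edgeR calls over all libraries. The 31 autophagy unigenes summed to 331 and 342 CPM in fruit, compared with 280.2 and 333 CPM in bud, and of the 15 tested, 12 had positive and 3 negative log2 fold changes (median 0.33). The 14 vacuolar sorting unigenes summed to 555 and 366 CPM against 588 and 424 CPM (median -0.17). The 28 cell death and senescence unigenes summed to 869.6 and 592 CPM in fruit, compared with 428 and 525 CPM in bud (median 0.33), of which a putative senescence-associated protein, Unigene53253_P106, made up 511 and 242 CPM against 131 and 142 CPM. Of the 20 tested in this list, edgeR called 1 higher without fruit replicate 1 and 2 without fruit replicate 2, Unigene53253_P106 among the 2, where 1.44% and 2.29% of all tested unigenes were called. For the autophagy and vacuolar sorting lists these fits gave 0 calls.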

How the data were processed

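RNA from 2 fruit and 2 floral bud libraries was sequenced on an Illumina instrument, per the labels' protocols. Per the file headers, each deposited table lists for every unigene its uniquely mapped read count, its RPKM (scaled to length and mapped reads) and the percent of its length covered, with protein and KEGG descriptions. The sources used here name no aligner, assembler or counting program. Near-identical unigenes could split reads, and strand use is not given. Tables were joined by unigene, an unlisted unigene counting as 0; descriptions came from the replicate 2 tables, else the replicate 1 tables. CPM is the count scaled to the library total.

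Counts were tested in R 4.3.3 with edgeR 4.0.16 (filterByExpr, TMM, quasi-likelihood F test, two-sided, Benjamini-Hochberg adjustment over all tested unigenes at 0.05); each SE was the ratio of the log2 fold change to the root of F. DESeq2 1.42.0 was an alternative, and the others were its size factors, no filter, each library left out, a replicate block, other descriptions and counts summed by description. The edgeR script was tested on simulated data, only as a check of the code. The simulated libraries varied less than the real ones and none stood apart. The check therefore does not show which differences could be called here. Named members were the 3 most abundant of each class, called members, those at least 4-fold apart in both pairs, and the 5 with the largest folds of each fruit library over the bud mean in each direction, the last 2 kinds with a mean of at least 5 CPM; other unigenes named were chosen after their values were seen. Members and gene lists were chosen with earlier results of these data known.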

Additional observations from a re-analysis of the deposited data

How the results depend on the processing

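Call counts depended on the fruit libraries. Over all tested unigenes edgeR called 0 higher and 0 lower in fruit, DESeq2 30 and 128, and leaving out 1 library gave 0 to 1546 higher and 0 to 4135 lower. Among members, DESeq2 called 1 lower, and leaving out 1 library gave 0 to 6 higher and 0 to 6 lower; without either bud library there were 0 calls. The members' median log2 fold change, 0.22, was 0.37 with DESeq2, 0.35 without the filter, 0.43 with replicate 1 descriptions first, 0.42 with counts summed by description, and 0.0075 (without fruit replicate 2) to 0.50 (without bud replicate 2) with 1 library left out. The log2 ratio of summed member CPM, 0.12, ranged over -0.91 (without fruit replicate 2) to 0.72 (without fruit replicate 1). The cause was not tested.

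The labels share only a replicate number between organs; the deviations of same-numbered libraries had r = 0.466, over 2 pairs. With the replicate number as a block edgeR called 0 members higher and 0 lower, and the median was 0.20. The block moved the log2 fold change to -4.50 for Unigene54493_P106 and -3.73 for Unigene55124_P106, and to 0.95, 1.36 and 0.85 for the RD21a-like Unigene129200_P106, Unigene119234_P106 and Unigene128421_P106.

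Of the 34 named members tested, 14 changed sign under some setting. Unigene54493_P106, at -0.00, became 0.012 with DESeq2 size factors, 0.00065 with DESeq2 and 0.017 without the filter. With 1 library left out, log2 fold changes ranged over -10.6 to 1.01 for Unigene54493_P106, -8.97 to 0.78 for Unigene55124_P106, -1.27 to 3.65 for Unigene119234_P106, -2.15 to 3.34 for Unigene128421_P106 and -1.53 to 3.29 for Unigene129200_P106. They ranged over -0.49 to 1.47 for Unigene53232_P106, -0.24 to 1.18 for Unigene53780_P106, -0.69 to 1.91 for Unigene54507_P106, -0.15 to 0.84 for Unigene53179_P106 and -0.18 to 0.92 for Unigene6888_P106. They ranged over -0.91 to 0.85 for Unigene71103_P106, -0.28 to 0.59 for Unigene17725_P106, -0.074 to 0.052 for Unigene129250_P106 and -0.29 to 0.014 for Unigene69058_P106. With 2 libraries per organ, and 1 fruit library apart from the other, a missing call does not show equal levels.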

Other observations

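Cysteine proteases also occurred under descriptions outside the members. A further 44 unigenes carried a KEGG term with an EC 3.4.22 number, against 53 of the 87 members. The most abundant was a vacuolar processing enzyme 1, spelled otherwise in its description (Unigene10853_P106), at 42.8 and 94.5 CPM in fruit, compared with 18.6 and 34.4 CPM in bud. Both fruits stood above both buds in CPM, as for the 3 abundant legumains among the members (edgeR log2 fold change 1.42, adjusted p = 1). Of those legumains, Unigene6878_P106 had overlapping organs with TMM scaling. A SEN102-like thiol protease, Unigene52719_P106, named after a daylily senescence gene, stood at 15.3 and 8.01 CPM in fruit, compared with 23.7 and 0.478 CPM in bud, and the buds differed more than the fruits.

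The unigenes nearest in pattern to the oryzain alpha chain-like Unigene54493_P106 (distance in centred log2(CPM + 1) over the 4 libraries, among 28302 described unigenes, a query chosen after its values were seen) were also scarce in fruit replicate 1 alone. The nearest, cyclic nucleotide-gated ion channel 1-like Unigene54444_P106, stood at 1.11 and 2716 CPM in fruits 1 and 2, compared with 787 and 2182 CPM in bud. Likewise, a pectate lyase-like unigene, Unigene54249_P106, stood at 1.67 and 2317 CPM against 977 and 1621 CPM. Nearest to the abundant vignain-like Unigene28773_P106 was a heat shock protein 70, Unigene53043_P106, at 144 and 143 CPM in fruit, compared with 168 and 160.1 CPM in bud.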
